A study of Sus scrofa with 16 samples.

Results

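The genes described here mark T lymphocytes, and the question was where their chromatin was accessible in newborn spleen, newborn lung and liver at 3 ages. The 9 members were CD3E, CD3D, CD3G, CD2, CD4, CD5, LCK, BCL11B and TCF7, chosen by name from 19560 protein-coding genes (PCGs) of the RefSeq annotation of Sscrofa11.1. CD3E, CD3D and CD3G lie side by side on chromosome 9 and were treated as 1 locus, which gave 7 loci of 321 kb in all. A peak was counted when it overlapped the promoter of a member (2.2 kb upstream to 500 bp downstream of any transcription start site, TSS) or its gene body with 5 kb on either side. By this rule 239 of 798988 peaks belonged to these loci.

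ATAC-seq, in which a transposase inserts adaptors into open DNA, had been run on frozen tissue of female domestic crossbred pigs. The 16 libraries comprise heart, kidney, lung, skeletal muscle, spleen and liver of newborns (labelled day 0, while the methods of the study call these animals a day old), liver at 28 days (suckling) and liver at 180 days (adult), with 2 biological replicates in each of the 8 groups and no treatment in any. The methods of the study describe the pigs as full sibs, and all organs of the newborns as taken from the same 2 animals. Whole tissue was used, so every list mixes all cell types of an organ, and a lower number of T cells cannot be told apart from less open chromatin per T cell. No test between groups was made. The lists give a value per replicate for called peaks only, with no read counts, and an exact permutation test of 2 against 2 libraries could not go below a two-sided p of 0.333.

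T cells recognise antigen through a receptor that is held at the surface by the CD3 chains. Binding of the receptor lets the kinase LCK, which is carried by the coreceptors CD4 and CD8, phosphorylate the CD3 tails and start signalling. BCL11B and TCF7 are transcription factors that commit thymic progenitors to the T lineage. T cells mature in the thymus and then settle in spleen, lymph nodes and, in smaller numbers, in organs such as liver and lung.

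The lists held from 57126 peaks (muscle) to 141689 (suckling liver). Between 19.2% and 50.4% of their peaks had an irreproducible discovery rate (IDR) of 0.05 or lower. A low IDR means that both replicates place a peak high and at a like rank. A weak peak can therefore have a high IDR even where the replicates are alike. Strength was given by the authors as −log10 p for each replicate. It grows with sequencing depth, so the percentile rank of the smaller replicate value among all peaks of the same list was used to set lists side by side. A longer list has more weak peaks below a given peak and so lifts its rank, for which reason positions counted from the top of the list are given as well where an order is stated. As a check of the tissue labels, promoter peaks were listed at 9 of 10 lung epithelium genes in lung (70.4% of all genes) and at 2 in spleen and 5, 4 and 4 in newborn, suckling and adult liver. Of 10 hepatocyte genes, 8, 9 and 9 had one at the 3 liver ages, 3 in spleen, 3 in lung and 4 in kidney. The shares of all genes were 73.5%, 74.8% and 69.7% at the 3 liver ages, 68.8% in spleen and 75.1% in kidney. The hepatocyte count of newborn liver was near its share, so it is a weak check of that label.

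The sequences under the spleen summits at 6 promoters are shown first, as the promoter peaks of the CD3 chains, CD2, CD5, LCK and TCF7 are described one by one. Each was read from the Sscrofa11.1 genome 5′ to 3′ on the strand of the gene, within 300 bp centred on the summit of the spleen peak and without exon bases. Capitals mark matches, on either strand, to the 6 letters searched for each of 7 factor families. These were TGTGGT for RUNX factors, CAGGAA for ETS factors and CTTTGA for TCF and LEF factors. Searched as well were AGATAA for GATA factors, CAGCTG for E-box proteins, GGGCGG for SP and KLF factors and GAGGAA for PU.1, and matches of different motifs may overlap.
CD3E: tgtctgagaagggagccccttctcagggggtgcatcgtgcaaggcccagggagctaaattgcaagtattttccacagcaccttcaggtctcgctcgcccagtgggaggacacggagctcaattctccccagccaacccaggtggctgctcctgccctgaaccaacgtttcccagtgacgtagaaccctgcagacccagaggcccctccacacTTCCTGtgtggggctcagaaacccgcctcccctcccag
CD3D and CD3G: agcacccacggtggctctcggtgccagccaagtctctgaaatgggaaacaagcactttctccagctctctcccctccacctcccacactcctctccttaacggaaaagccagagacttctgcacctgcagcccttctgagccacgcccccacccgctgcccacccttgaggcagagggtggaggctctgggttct
CD2: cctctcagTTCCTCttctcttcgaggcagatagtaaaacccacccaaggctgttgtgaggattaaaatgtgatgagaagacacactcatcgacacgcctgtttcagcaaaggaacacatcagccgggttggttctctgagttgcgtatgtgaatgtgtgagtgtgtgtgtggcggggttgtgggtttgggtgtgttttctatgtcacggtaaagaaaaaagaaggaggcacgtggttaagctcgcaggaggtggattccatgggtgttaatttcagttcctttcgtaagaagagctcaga
CD5: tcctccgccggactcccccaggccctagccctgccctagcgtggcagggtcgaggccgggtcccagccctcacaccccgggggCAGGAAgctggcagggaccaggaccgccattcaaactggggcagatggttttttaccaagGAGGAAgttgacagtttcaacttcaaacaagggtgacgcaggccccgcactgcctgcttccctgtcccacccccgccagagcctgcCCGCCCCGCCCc
LCK: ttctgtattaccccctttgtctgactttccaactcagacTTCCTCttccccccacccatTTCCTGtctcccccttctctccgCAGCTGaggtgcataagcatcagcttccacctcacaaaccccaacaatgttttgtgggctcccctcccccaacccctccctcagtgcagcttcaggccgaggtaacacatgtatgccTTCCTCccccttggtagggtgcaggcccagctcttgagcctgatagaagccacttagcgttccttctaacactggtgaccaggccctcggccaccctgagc
TCF7: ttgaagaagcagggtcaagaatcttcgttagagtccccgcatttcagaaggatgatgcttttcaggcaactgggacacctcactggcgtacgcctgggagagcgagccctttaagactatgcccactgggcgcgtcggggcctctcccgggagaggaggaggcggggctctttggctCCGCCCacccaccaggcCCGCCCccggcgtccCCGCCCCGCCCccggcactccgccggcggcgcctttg
These stretches lie at chr9:45619480-45619729 (plus strand) for CD3E, chr9:45645048-45645242 (plus strand) for CD3D and CD3G, chr4:103976999-103977298 (minus strand) for CD2, chr2:10673480-10673720 (minus strand) for CD5, chr6:88718968-88719267 (plus strand) for LCK and chr2:136422496-136422741 (plus strand) for TCF7. The stretch of TCF7 held 4 SP and KLF matches and that of CD5 held 2, whereas the other 4 held none. Over the full 300 bp windows of the strongest spleen promoter peaks, of which the members had 8 (CD3D and CD3G share 1), the SP and KLF letters were found in 2 of 8, against 73.3% of the windows of all 13449 PCGs with a spleen promoter peak. ETS letters were found in 3 of 8 (CD3E, CD5 and LCK) against 23.6%, and PU.1 letters in 3 of 8 (CD2, CD5 and LCK) against 27.3%. RUNX letters were in 0 of 8 (9.31% of all), GATA letters in 0 of 8 (3.89%), and the E-box and the TCF and LEF letters in 1 of 8 each (17.9% and 8.46%). Median GC content was 59.7% in the member windows and 66.7% in all, and the median number of CpG was 9 (from 4 at LCK to 30 at TCF7) against 27. The windows of LCK, CD4 and BCL11B were centred at −768 bp, −1064 bp and −1080 bp from the nearest TSS and that of CD2 at −178 bp, so these 4 do not hold a start.

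Promoters of all 9 members had a peak in newborn spleen and in suckling liver. In adult liver 8 had one, with CD3E missing, and in newborn liver 5 (CD4, CD5, LCK, BCL11B and TCF7). Lung and heart had only those of BCL11B and TCF7, kidney those of CD4, CD5, BCL11B and TCF7, and muscle that of TCF7. Among all PCGs the share with a promoter peak was 68.8% in spleen, 70.4% in lung, 73.5% in newborn liver, 74.8% in suckling liver and 69.7% in adult liver, and 67.9%, 75.1% and 61.4% in heart, kidney and muscle. In lung the members thus stood at 2 of 9 where most genes had a peak. The members' peaks were weaker than those of most genes. Their median rank was 71.8 in spleen and 67.6 in suckling liver, where the median over all PCGs with a promoter peak was 89.0 and 89.6, and it was 39.5 in newborn liver (5 members; 86.9 for all) and 28.3 in adult liver (8 members; 88.8 for all).

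**Figure D1:**
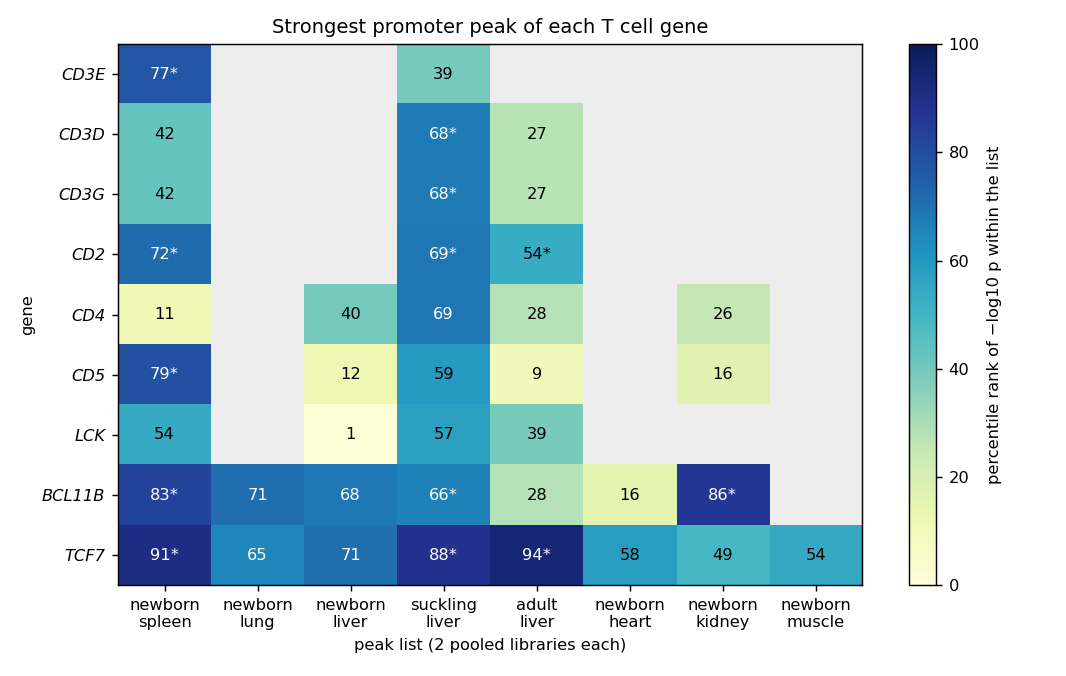
Percentile rank of −log10 p (colour and number, 0 to 100, within each list) of the strongest promoter peak for each of the 9 genes (rows) in each of the 8 peak lists (columns). Grey cells had no promoter peak, and an asterisk marks a strongest peak with an IDR of 0.05 or lower; spleen and suckling liver are the columns with no grey cell, and TCF7 is the row with none.

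At an IDR of 0.05 or lower, 5 members kept a promoter peak in spleen (CD3E, CD2, CD5, BCL11B and TCF7; 42.9% of all PCGs) and 5 in suckling liver (CD3D, CD3G, CD2, BCL11B and TCF7; 55.3% of all PCGs). Adult liver kept 2 (CD2 and TCF7; 56.7%), kidney 1 (BCL11B; 56.1%), and newborn liver, lung, heart and muscle none (44.0%, 40.6%, 38.8% and 37.0%). CD3D and CD3G share 1 peak and were counted as separate members here. List length mattered as well, since the suckling list was the longest. With the 57126 strongest peaks of every list, spleen had 8 members (60.1% of all PCGs), suckling liver 6 (59.1%), and newborn liver, adult liver and lung 2 each (57.6%, 58.1% and 61.6%). Heart, kidney and muscle had 1 each (62.7%, 60.2% and 61.4%). Ranked on replicate 2 alone in lists of that length, there were 9 members in spleen, 4 in suckling liver and 2 each in newborn and adult liver. On replicate 1 alone the counts were 8, 7, 0 and 2. Shares of all PCGs were not computed for single replicates, so these counts only show how the members' counts moved.

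CD3E, CD3D, CD3G and CD2 were the members with a promoter peak in spleen and in no other newborn tissue, a pattern found at 0.910% of PCGs (178 genes), and with a peak in suckling but not newborn liver, found at 3.43% of PCGs. At 68 PCGs, or 0.348%, both held. No member had a promoter peak in newborn and not in suckling liver (2.14% of PCGs). Between single lists, 7 members had a promoter peak in spleen and not in lung (3.77% of PCGs), 4 in spleen and not in newborn liver (2.49%) and 3 in adult and not in newborn liver (CD3D, CD3G and CD2; 1.61%). These patterns changed with the peaks admitted. Among the 57126 strongest peaks of each list, CD3E had no promoter peak in suckling liver and, of these 4 genes, adult liver had CD2 alone. On replicate 2 alone, suckling liver had CD3D and CD3G, with their shared peak, and neither CD3E nor CD2. CD3E and CD2 had an IDR of 0.05 or lower in spleen and no peak in any other newborn tissue (0.148% of PCGs). CD3E encodes the epsilon chain, with which both other CD3 chains pair. Its only spleen promoter peak covered the TSS (chromosome 9, 45619269 to 45619894), with −log10 p of 16.8 and 39.4 in replicates 1 and 2 and an IDR of 0.017. In suckling liver the peak of CD3E had 8.12 and 5.59 and an IDR of 0.38, and neither newborn nor adult liver listed one. Spleen was the higher by rank, at 76.8 against 39.4, and counted from the top of the list, at position 19590 against 85821.

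CD3D and CD3G, the delta and gamma chains, are transcribed away from each other from starts 1.09 kb apart and shared 1 region, which covered the start of CD3G (chromosome 9, 45645038 to 45645529). Suckling liver had 10.3 and 18.5 (IDR 0.0178, rank 67.6), spleen had 6.7 and 18.9 (IDR 0.282, rank 42.5) and adult liver had 7.24 and 20.2 (IDR 0.229, rank 27.4). Counted from the top, suckling liver (position 45904) and spleen (48526) were nearly level for CD3D and CD3G, and adult liver was at 79185. No list of newborn lung, liver, heart, kidney or muscle held the region.

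CD2 is an adhesion receptor of T and natural killer (NK) cells. Its promoter region (chromosome 4, 103976856 to 103977385) covered the TSS in spleen and suckling liver, began just upstream of it in adult liver, and was called in the same 3 lists as that of CD3D and CD3G, each time with an IDR under 0.05. The replicates had 13.8 and 38.1 in spleen (rank 71.8), 10.7 and 12.9 in suckling liver (rank 68.8) and 17.2 and 41.9 in adult liver (rank 53.5). CD2 was the one gene of these 4 that passed the IDR limit in adult liver.

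The coreceptor CD4 and the inhibitory receptor CD5 were less uniform. CD4 has starts spread over 6.35 kb, and its spleen promoter peaks ranked low. At the upstream starts (chromosome 5, 63918167 to 63918646) spleen had 3.89 and 3.7 (rank 2.73), newborn liver 14.2 and 6.19 (rank 39.5), suckling liver 13.1 and 10.8 (rank 68.9) and adult liver 5.96 and 14.6 (rank 20.0). None of the CD4 promoter peaks reached an IDR of 0.05. At CD5 the spleen peak covered the TSS (chromosome 2, 10673172 to 10673892) with 18.5 and 28.4 (IDR 0.0224, rank 78.8). Suckling liver had 8.29 and 8.08 there (rank 59.1) and newborn liver 6 and 4.13 (rank 12.0), while the CD5 promoter peak of adult liver lay further upstream with 4.67 and 12.8 (rank 9.46).

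LCK has annotated starts 16.6 kb apart. In front of the upstream start (chromosome 6, 88718664 to 88719651) the replicates had 8.46 and 22 in spleen (rank 54.1), 9.9 and 22.7 in adult liver (rank 38.7) and 3.3 and 7.3 in newborn liver (rank 1.42). Suckling liver had 9.96 and 4.64 in that region (rank 25.4), and its strongest LCK promoter peak lay before the downstream start with 9.31 and 7.81 (rank 57.1). The downstream start itself was covered by a peak in spleen (6.18 and 27.4). Suckling liver had a peak just past that start (4.47 and 4.64), and the other 6 lists had none there. All LCK promoter peaks had an IDR above 0.05.

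BCL11B and TCF7 were the broad members. The BCL11B promoter region was centred at −1084 bp from the TSS (chromosome 7, 120296595 to 120297047) and was called in 7 lists, muscle being the exception. Kidney had 21 and 24.9 (rank 86.5) and spleen 23.3 and 40.9 (rank 83.1), which were at positions 17992 and 14290 for BCL11B from the top of their lists, so that the order depended on the measure. Lung had 8.81 and 21.7 (rank 70.8), newborn liver 18.2 and 12.3 (rank 68.4), suckling liver 9.86 and 17.3 (rank 66.1) and adult liver 7.36 and 16.6 (rank 28.3). TCF7, which encodes the factor TCF-1, had a promoter peak in all 8 lists, as did 56.7% of PCGs. Adult liver led with 203 and 173 (rank 93.9), followed by spleen with 43.7 and 81.3 (rank 90.8) and suckling liver with 25.9 and 47.8 (rank 88.5). Ranks in the other 5 lists were between 49.2 and 70.6. Newborn liver, with 15.8 and 13.3, was the highest of these by rank. Counted from the top of the list, muscle (position 26262), lung (28308) and heart (30275) stood ahead of newborn liver (35308) for TCF7. In newborn liver, as in lung, the strongest TCF7 promoter peak lay upstream of the TSS, so the order above does not set like positions side by side. Both lists also had a peak over the TSS. It had 9.67 and 30.8 in newborn liver (rank 60) and 3.89 and 117 in lung (rank 9.67).

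**Figure D2:**
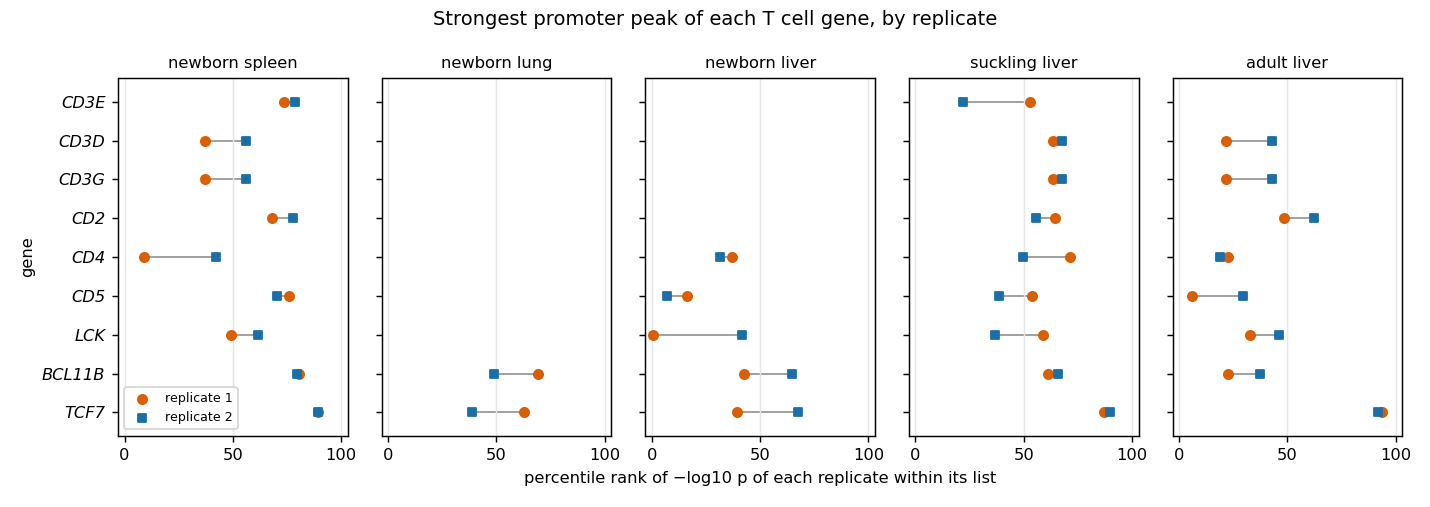
Percentile rank of −log10 p within the list for the strongest promoter peak of each gene (rows), shown for replicate 1 (orange circles) and replicate 2 (blue squares) joined by a grey line, in newborn spleen, newborn lung and the 3 liver ages. The replicates lie close together for TCF7 in spleen (89.2 and 89.3) and far apart for CD4 in spleen (9.08 and 42.2) and for LCK in newborn liver (0.743 and 41.4).

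Spread between replicates limited what could be read from single ranks. In spleen the replicates of CD3E ranked 73.6 and 78.7 among the values of their own library, those of CD2 68.1 and 77.9, and those of CD5 75.8 and 70.2. For CD3E in suckling liver the replicates were at 52.9 and 22, both below those of spleen. For CD2 in suckling liver they were at 64.6 and 55.7, also below spleen, and the same held for CD3E and CD2 by position from the top. For CD3D and CD3G, positions from the top were 51956 and 45929 in the replicates of suckling liver and 52898 and 36938 in those of spleen, which overlapped. By rank, the replicates of suckling liver (63.3 and 67.6) were both above those of spleen (37.3 and 56.2). For BCL11B the replicates of spleen (80.5 and 79.5) and of kidney (84.8 and 80.4) overlapped by rank. By position, those of spleen (16475 and 17298) were both ahead of those of kidney (20304 and 26085). Overlap of replicates thus depended on the measure for these genes.

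Beyond promoters, the peaks at the 7 loci numbered 40 in spleen, 20 in lung, 36 in newborn liver, 55 in suckling liver and 30 in adult liver. Heart had 15, kidney 35 and muscle 8. Per 100 kb of sequence the loci held 12.4 peaks in spleen, 17.1 in suckling liver and 6.22 in lung. All PCGs with the same flanks held 4.63, 7.71 and 4.44. The ratio of these densities was highest in spleen (2.69) and suckling liver (2.22), was 1.7 in newborn liver, 1.53 in adult liver and 1.4 in lung, and was lowest in muscle (0.762).

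Peaks of all lists merged into 80 regions, of which 40 lay in introns of members, 13 in their promoters, 9 over their other exons and 7 in promoters of neighbouring genes. Of the regions, 33 were called in 1 list and 5 in all 8. Of those 5, the promoters of UBE4A beside CD3G, of P3H3 beside CD4 and of HDAC1 beside LCK account for 3, and TCF7 for the other two. In spleen and in no other list were 3 regions, at LCK, BCL11B and TCF7, each with an IDR of 0.661, and 9 with lists of equal length. No genome-wide share was computed for these region counts. Of the 40 spleen peaks, 32 overlapped a peak of suckling liver (80.0%, against 61.5% of all spleen peaks), 21 one of newborn liver (52.5%, against 61.0%) and 14 one of lung (35.0%, against 47.8%). Conversely, 34 of the 55 suckling liver peaks overlapped a spleen peak (61.8%, against 37.6% of all suckling liver peaks). The suckling list was the longest, and with lists of equal length spleen and suckling liver shared 14 regions in place of 32, and 11 and 15 on replicate 2 and replicate 1 alone.

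**Figure D3:**
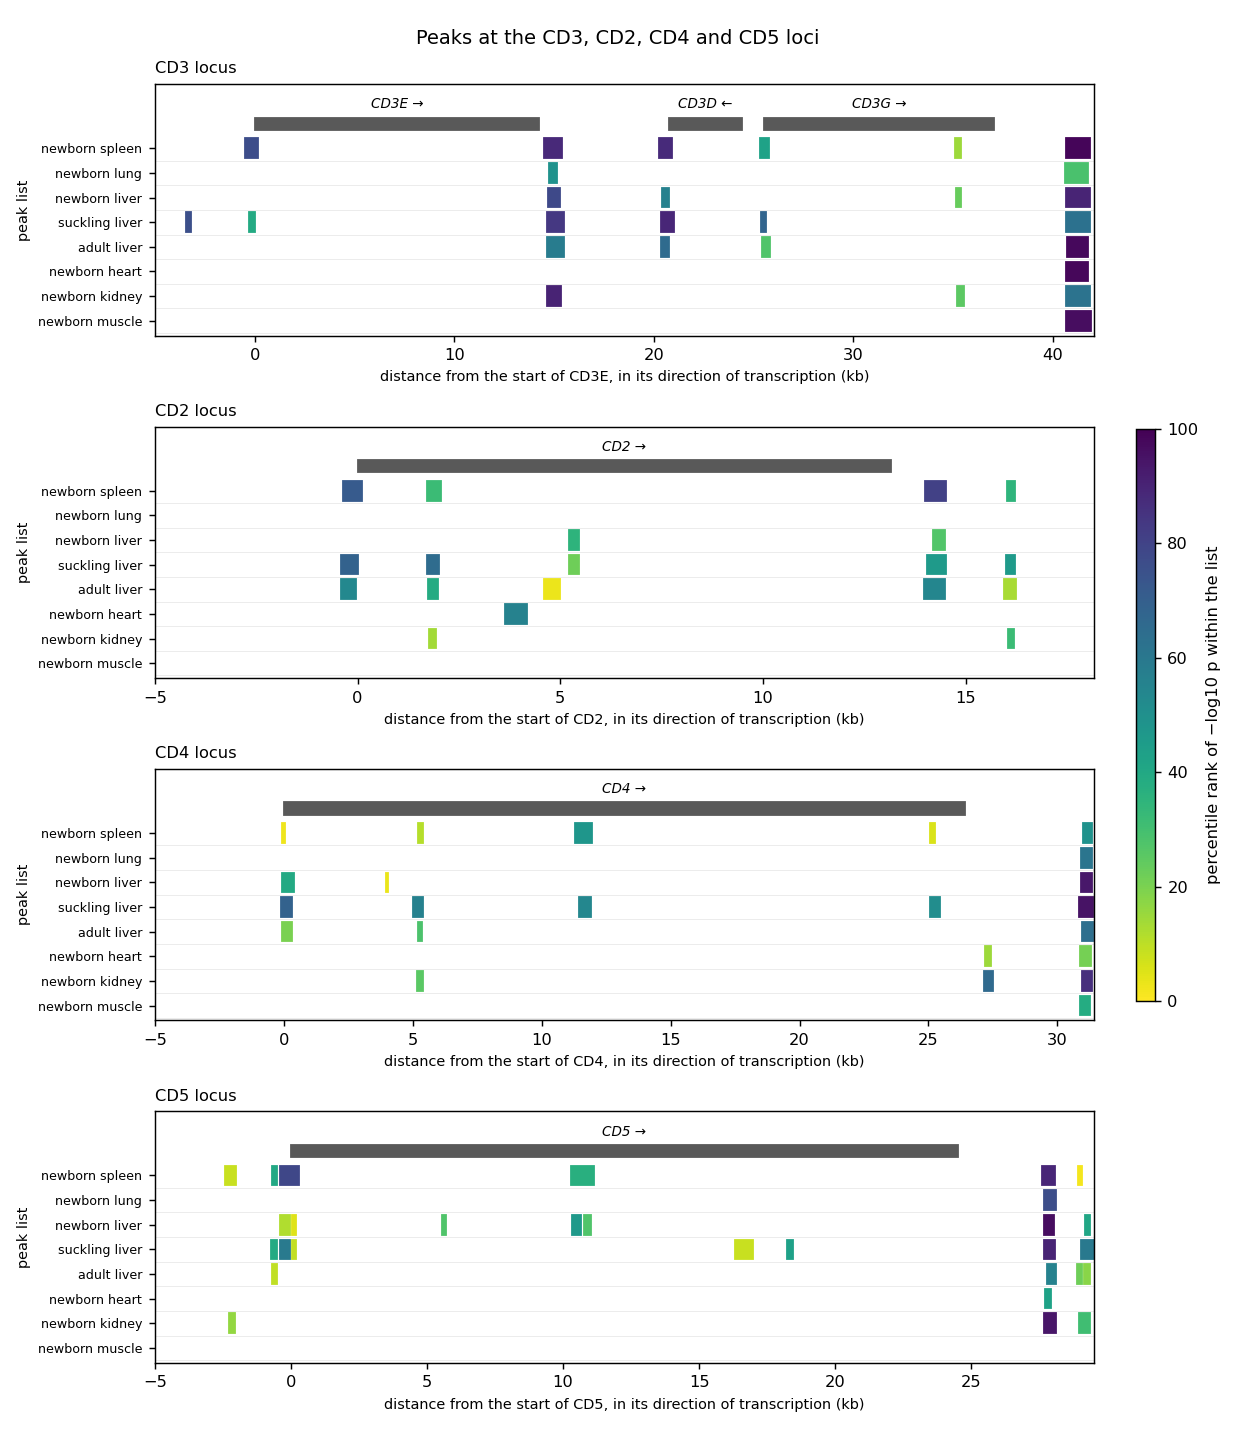
Peaks of the 8 lists (rows) along the CD3, CD2, CD4 and CD5 loci, drawn to scale as distance in kb from the start of the named gene in its direction of transcription, with gene bodies as dark bars. Colour gives the percentile rank of −log10 p within the list; at CD3 the peaks at the start of CD3E stand in the spleen and suckling liver rows, while the UBE4A promoter at the right end is filled in every row.

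Between CD3E and CD3D, whose 3′ ends face each other 6.5 kb apart, lay the strongest CD3 regions outside the promoter of UBE4A. The first (chromosome 9, 45634242 to 45635250) was intergenic. It had 34.1 and 45.4 in spleen (rank 88.4), 27 and 32.7 in kidney (rank 90.6), 19.6 and 32 in suckling liver (rank 83.7), 17.6 and 21.2 in newborn liver (rank 77.9), 21.3 and 41.4 in adult liver (rank 58.5) and 5.78 and 8.35 in lung (rank 49.4). The second (chromosome 9, 45639996 to 45640754) overlapped the last exon of CD3D. It was called in spleen (33.6 and 52.1, rank 88.2), suckling liver (27 and 29.8, rank 89.1), adult liver (29.8 and 50.4, rank 65.6) and newborn liver (16.7 and 8.83, rank 56.4), and in none of lung, heart, kidney and muscle. CD2 had a like region past its 3′ end (chromosome 4, 103962446 to 103962990), called in spleen (20.3 and 33.1, rank 80.5) and at all 3 liver ages (ranks 27.2, 45.8 and 54.1). The strongest spleen region at CD5 also lay past the 3′ end (chromosome 2, 10645352 to 10645875). It had 36.8 and 90.7 in spleen (rank 89.3) and was called in every list but muscle.

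Some regions inside the genes were listed in liver and not in spleen. In an LCK intron 7.8 kb from the upstream start (chromosome 6, 88727620 to 88728274) newborn liver had 38.8 and 16 (rank 75.6), suckling liver 19.4 and 36.8 (rank 83.5) and adult liver 42.4 and 68.4 (rank 71.8), and no other list had a peak. A TCF7 intron (chromosome 2, 136434562 to 136435290) was likewise called at the 3 liver ages alone, with ranks of 62.2, 78.7 and 83.0. Another TCF7 intron region (chromosome 2, 136444661 to 136445460) had 287 and 263 in adult liver (rank 98.2), 41.4 and 53.1 in suckling liver (rank 94.4), 28.4 and 13.8 in newborn liver (rank 71.5) and 6.92 and 12.6 in spleen (rank 43.8). BCL11B had the most regions (26 over a locus of 101 kb with its flanks), with 14 peaks in kidney, 12 in suckling liver, 8 in lung and 7 in spleen, and every peak in its introns had an IDR of 0.1 or higher.

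**Figure D4:**
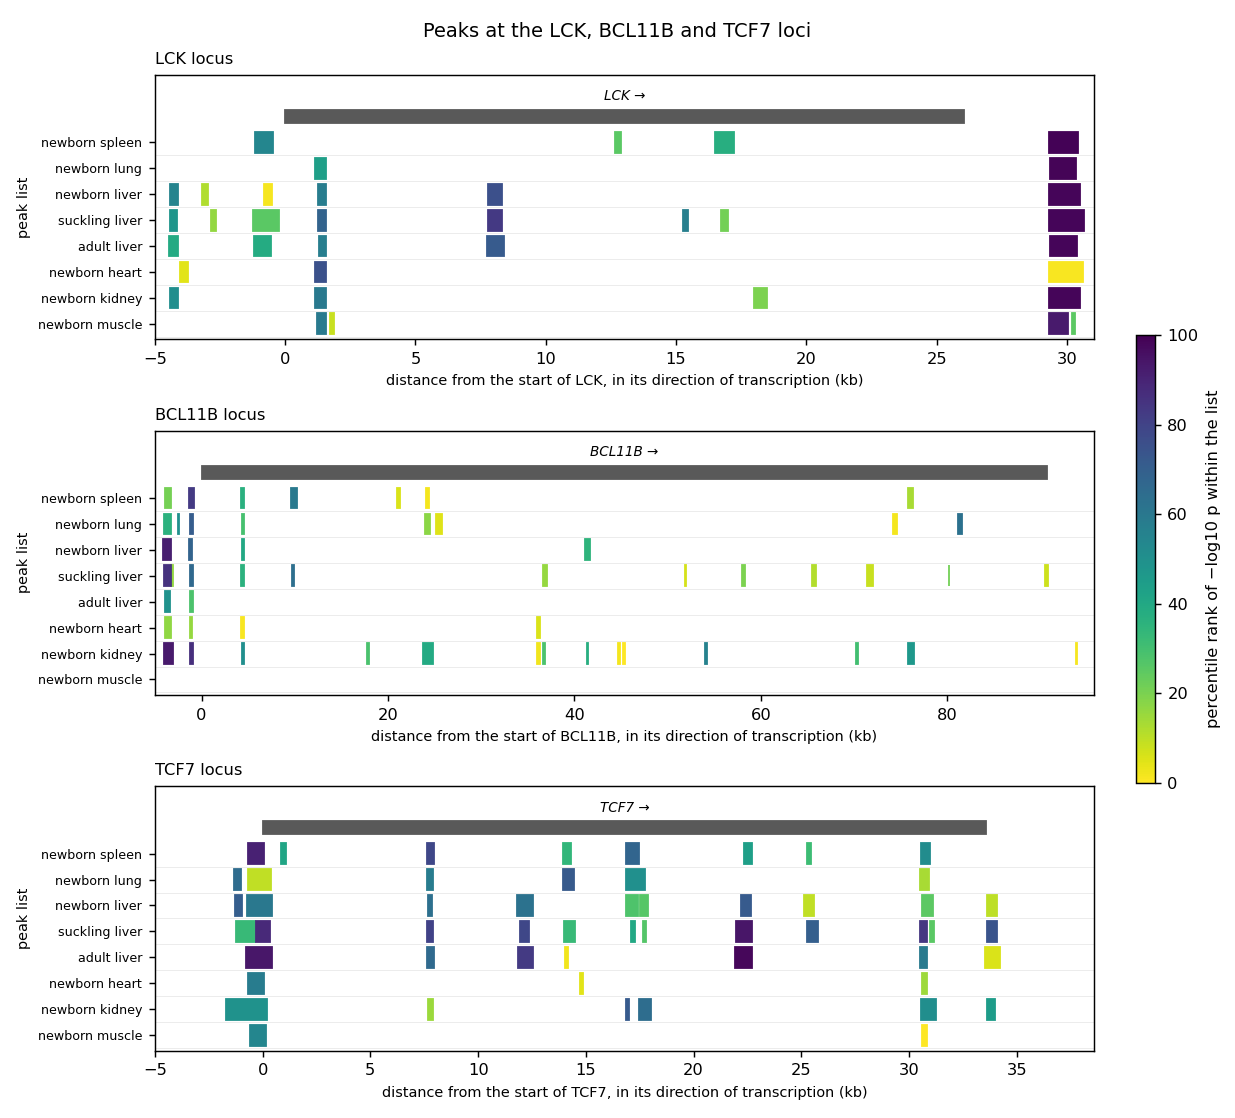
Peaks of the 8 lists (rows) along the LCK, BCL11B and TCF7 loci, with distance in kb from the start of each gene in its direction of transcription, gene bodies as dark bars and colour for the percentile rank of −log10 p within the list. The LCK intron region near 7.8 kb stands only in the 3 liver rows, TCF7 has a peak at its start in every row, and the band at the right end of LCK is the HDAC1 promoter.

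Between newborn and suckling liver, 26 regions were called at both ages, 24 at the suckling age and not in the newborn, and 6 in the newborn and not at the suckling age. Of the 24, 12 were also spleen regions, and 7 of these 12 were called in adult liver too (at CD3D and CD3G, CD2, CD4, CD5 and TCF7). Adult liver had 1 region that suckling liver lacked, and suckling liver had 22 that adult liver lacked. Regions were not merged genome wide, so no share over all regions stands beside these counts, which describe the loci only. Counted as peaks, 56.4% of the suckling liver peaks at these loci overlapped a newborn liver peak, against 65.6% of all suckling liver peaks. From newborn to suckling liver it was 80.6% against 75.8%. An adult liver peak was overlapped by 52.7% of the suckling liver peaks at the loci, against 59.3% of all. From adult to suckling liver it was 96.7% against 74.0%. The suckling list was the longest. Ranking the peaks on replicate 2 alone, with lists of equal length, left 3 regions in each direction between newborn and suckling liver, and ranking on replicate 1 alone left 15 and 2. At an IDR of 0.05 or lower the counts were 12 and 1.

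Other T cell genes were read from a fixed list of 48, of which 45 were matched. Promoter peaks were present at 38 in spleen, 38 in suckling liver, 35 in adult liver, 28 in newborn liver and 19 in lung. These were 84.4%, 84.4%, 77.8%, 62.2% and 42.2% of the 45, where the shares of all PCGs were 68.8%, 74.8%, 69.7%, 73.5% and 70.4%. Among 21 genes of T cell receptor signalling the counts were 18, 18, 16, 11 and 5 in the same order, and 7 had a peak in suckling and not in newborn liver (3.43% of all PCGs). Among them were the CD3 zeta chain gene CD247 (spleen rank 71.9, suckling rank 56.9), THEMIS (64.0 and 71.4), the costimulatory receptor CD28 (49.2 and 44.1), CTLA4 (no spleen peak, 1.74), CD8B (0.158 and 27.3) and SH2D1A (18.4 and 27.9). LCP2, an adaptor protein gene that other blood cells use as well, had a peak already in newborn liver (spleen rank 88.1, newborn liver rank 66.7). Lineage regulators had peaks at 11 of 12 in spleen, 9 in lung and 11, 11 and 12 at the 3 liver ages. GATA3 ranked between 91.0 and 98.3 in these 5 lists, and also high in kidney (97.6), heart (90.5) and muscle (88.6). Of 4 genes used by developing thymocytes, DNTT and PTCRA had no promoter peak in any list, RAG1 had one in suckling liver (53.6) and RAG2 had one in all 8. The RAG2 peak ranked 91.9 in spleen and also high in heart (98.3), kidney (99.3) and muscle (93). In newborn liver it ranked 3.24, where the replicates had 3.44 and 97.8. Among 8 homing and cytokine receptor genes, IL2RA, the alpha chain of the interleukin-2 receptor, had peaks in spleen (16.3) and suckling liver (69.0) and no other list.

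Genes of other cells were counted in the same way. From newborn to suckling to adult liver, promoter peaks were present at 3, 7 and 7 of 11 cytotoxic and NK genes, 6, 7 and 6 of 9 B cell genes, 8, 8 and 7 of 10 myeloid genes and 9, 5 and 3 of 10 erythroid genes, where the shares of all PCGs were 73.5%, 74.8% and 69.7%. The B cell shares (66.7%, 77.8% and 66.7%) and the myeloid shares (80.0%, 80.0% and 70.0%) were near those of all PCGs. CD79A, PAX5, EBF1, CD22 and BANK1 had a peak at all 3 liver ages. CD79B, a chain of the B cell receptor complex, had none in liver and a weak one in spleen (rank 9.28). The cytotoxic genes NCR1 (rank 69.5) and GZMB (67.4) were listed in suckling and not in newborn liver. KLRB1 and KLRK1 had no promoter peak in any list. The genes of other cells named here, and DNTT, PTCRA and RAG2 above, were singled out after their values were seen. In spleen all 9 B cell and all 10 erythroid genes had a promoter peak beside the 9 members, and in lung 4 and 4. The part of these other cells in the members' peaks was not tested.

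**Figure D5:**
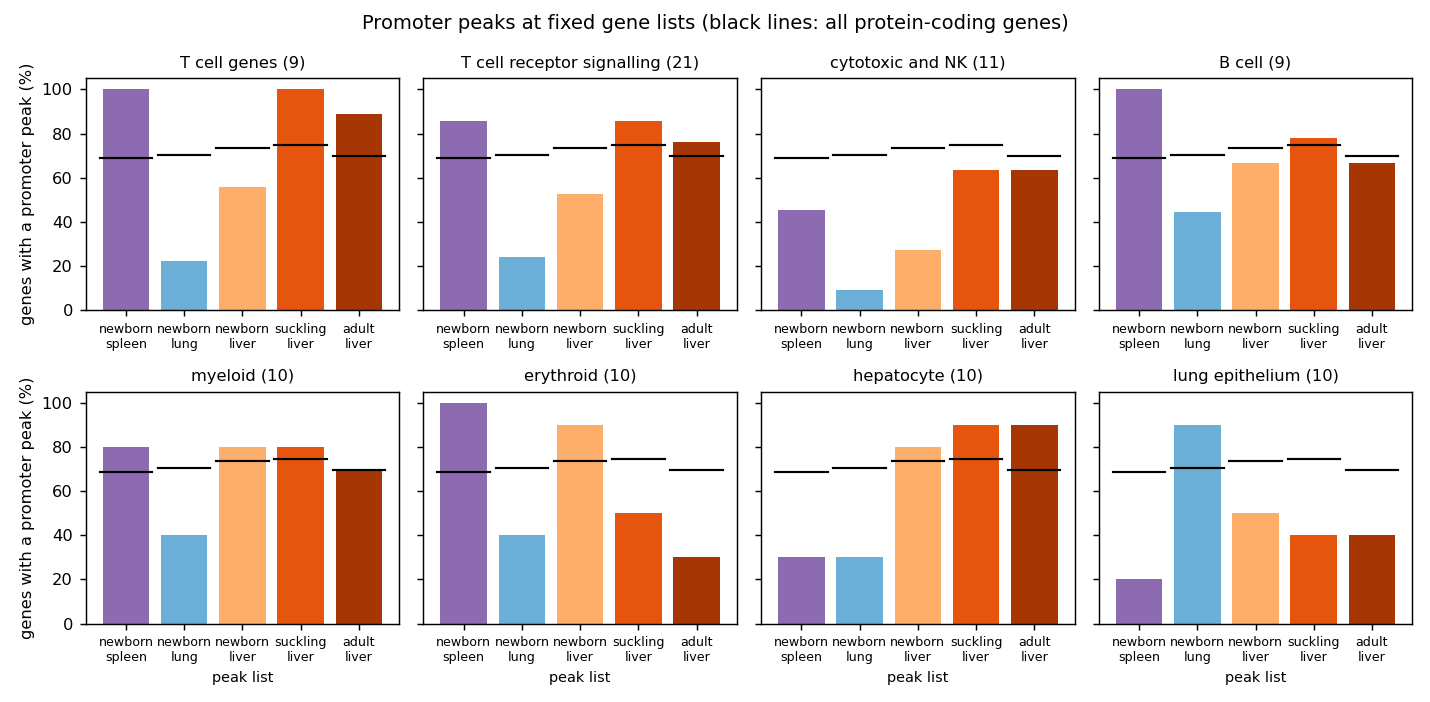
Share of genes with a promoter peak (percent, bars from 0) in newborn spleen, newborn lung and the 3 liver ages for 8 fixed gene lists, with the number of matched genes in each title and black lines for the share among all PCGs in the same peak list. The T cell genes and the T cell receptor signalling genes stand above the line in spleen and at the 2 later liver ages and below it in lung and newborn liver, and the erythroid bars shrink from newborn to adult liver.

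The PCGs whose promoter ranks over the 8 lists were most like the mean of the members were, by Pearson's r over 8 lists among 15318 genes, THEMIS (0.974), CRTAM (0.973), IL12RB1 (0.973), GRAP2 (0.968), LOC100156062 and LOC106510284 (0.963 each, with equal ranks in all lists), CD28 (0.956), MPEG1 (0.954), CD226 (0.953) and GPR174 (0.953). A missing peak counted as rank 0. The 8 points share list length and library, so r describes likeness only. The members' mean rank was 64.8 in suckling liver, 61.3 in spleen, 34.1 in adult liver, 21.3 in newborn liver, 19.7 in kidney, 15.1 in lung, 8.2 in heart and 6 in muscle. The shared peak of CD3D and CD3G enters these means once for each gene, and it ranked 67.6 in suckling liver and 42.5 in spleen. The suckling list was the longest, which lifts its ranks. The order of suckling liver and spleen by mean rank therefore leans on both. By position from the top, spleen was ahead for CD3E, CD2, CD5, LCK, BCL11B and TCF7, and suckling liver for CD3D, CD3G and CD4.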

How the data were processed

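ATAC-seq libraries were grouped by tissue and age from the labels. According to the methods of the study, reads were aligned to Sscrofa11.1 with Bowtie2, filtered with SAMtools (1.3.1, also in the submitters' processing notes), peaks were called in each replicate with MACS2, and replicates were matched with the IDR tool. The authors deposited, per merged peak, the −log10 p of each replicate, the smaller of both, and a score that is the scaled IDR, with 540 for an IDR of 0.05. The lists are not filtered on IDR and give no depth, so a missing peak is a peak not called, which at a weak site may reflect depth.

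Overlaps (1 bp or more), merged regions and ranks were computed in Python 3.11.15 with pandas 2.3.3, with overlap code tested on simulated data. Promoters were those of 19560 PCGs (45998 in all). Members, gene lists and comparisons were chosen with earlier results of these data known. Named were all 9 members, their promoter regions, the strongest spleen region of a locus, other T cell genes with a promoter peak in suckling but not newborn liver or among the 10 highest ranks in spleen, and the 10 genes of most similar pattern by r. No significance test was made. Alternatives were an IDR limit, lists of equal length, single replicates, 25% overlap, a narrower promoter and other flanks. Leaving out peaks in promoters of neighbouring genes was chosen after seeing the data. Values of some listed genes are not reported here.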

Additional observations from a re-analysis of the deposited data

How the results depend on the processing

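Of 102 combinations of a count and an alternative, 57 stayed within 1.5 times the reported count. With 25% overlap, a promoter of 1 kb upstream to 100 bp downstream, a flank of 10 kb, or without peaks in promoters of other genes, all counts did. Without a flank, peaks at the loci were 13 in lung and 19 in adult liver. At an IDR of 0.05 or lower, members with a promoter peak were 5 in spleen, 0 in lung, 0 in newborn liver, 5 in suckling liver and 2 in adult liver, peaks at the loci were 13, 2, 5, 16 and 15 in that order, 8 regions were shared by spleen and suckling liver, and 12 were in suckling and not newborn liver and 1 the reverse. With the 57126 strongest peaks of each list, members were 8 in spleen, 2 in newborn liver, 6 in suckling liver and 2 in adult liver, peaks were 16 in newborn liver, 23 in suckling liver and 16 in adult liver, and regions were 9 in spleen alone, 14 shared by spleen and suckling liver, 9 in suckling and not newborn liver and 2 the reverse. Leaving out a replicate also used the 57126 strongest peaks of each list, by the other replicate, so it is to be read against the preceding counts. It gave from 8 to 9 members for spleen, 0 to 2 for liver of newborns, 4 to 7 at the suckling age and 2 in adults, with no share of all PCGs computed. Peaks were then 25 to 27 for spleen, 13 to 16 for lung, and 13 to 14, 14 to 26 and 15 to 16 for liver from the youngest to the oldest age, the 14 at the suckling age being without replicate 1. Regions were 8 to 10 in spleen alone, 11 to 15 shared by spleen and suckling liver, 3 to 15 in suckling and not newborn liver and 2 to 3 the reverse. Fewer peaks enter each of these alternatives by construction. No paired analysis was possible because the counts of called peaks come from no test and the labels do not tie a replicate number to an animal.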

Other observations

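The rank of a single peak can be low at a promoter that is open in every tissue. The HDAC1 promoter beside LCK ranked between 93.0 and 99.4 in 7 lists and 1.12 in heart, where the replicates had 3.46 and 60. The UBE4A promoter beside CD3G ranked 28.9 in lung (4.62 and 226) and 96.7 or higher in spleen, heart, muscle and adult liver.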
